A study of Mus musculus with 6 samples.

Results

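The 10 genes described here, Hspa5, Hsp90b1, Pdia4, Pdia6, Creld2, Sdf2l1, Dnajb9, Derl3, Edem1 and Herpud1, encode folding and degradation proteins of the endoplasmic reticulum (ER). They were taken by name from the 41053 gene names of the count table, and were chosen with earlier results of these data known. All 10 passed the filter on low counts and are among the 13604 genes tested, with counts per library between 167 for Derl3 and 33425 for Hspa5. RNA sequencing was made on naive B cells from the spleens of C57BL/6 mice, with 3 libraries of the genotype TET2 Knock-Out (KO) and 3 of the genotype TET2 Wild-Type (WT). The libraries are numbered 2, 3 and 4 in each genotype. TET2 is an enzyme that oxidizes 5-methylcytosine in DNA. The labels give no age, sex or treatment, no promoter or Cre line, and not the deleted stretch of the gene. They do not say whether each library came from its own mouse, so the tests below are set against variation among libraries that could be technical in origin.

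Proteins bound for secretion or for the cell membrane fold in the ER, and the unfolded protein response raises the capacity for folding and disposal when unfolded chains accumulate there. Its sensors are IRE1, PERK and ATF6. IRE1 splices Xbp1 mRNA and PERK phosphorylates eIF2alpha, while ATF6 is released by proteolysis as a transcription factor. XBP1 and ATF6 then drive chaperone genes. In the B lineage the response is best known from plasma cells, whose ER expands for antibody secretion; naive B cells secrete little antibody.

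The bases before the start of several of these genes hold known elements of this response. The ER stress response element (ERSE), the letters CCAAT and CCACG with any 9 bases between them, was searched on both strands of the RefSeq windows of 300 bases on GRCm38.p6, which run from 250 bases before to 50 after each gene's start. All 10 genes matched a window by symbol, and the element was found for 5 of them, against 39 of all 32851 windows (0.119%). ERSE-II, ATTGG and CCACG with any 1 base between them, was found for Herpud1 and in 0.0365% of windows. The unfolded protein response element TGACGTGG was found for 0 of the 10 genes and in 0.676% of windows. No match of ERSE overlapped a match of ERSE-II in the 10 genes. A match describes the letters of the window and is no measurement of binding, and a window without a match says only that these letters are not in it. The matched stretches follow, 5′ to 3′ on the gene's strand, with the outer bases of the element in capitals. Hspa5 is shown with all 250 bases before its RefSeq start, because it is the best-known target of the response. The start of Hspa5 in the count table is another, at 34771970, so that part of the stretch, with the element, lies after it.
Hspa5, chr2:34771840-34772089, plus strand: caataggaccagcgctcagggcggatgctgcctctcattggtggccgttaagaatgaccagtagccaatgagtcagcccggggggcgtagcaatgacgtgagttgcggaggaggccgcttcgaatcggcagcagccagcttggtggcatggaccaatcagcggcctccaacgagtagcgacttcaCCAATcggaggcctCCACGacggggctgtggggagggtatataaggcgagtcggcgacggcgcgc
Hsp90b1, chr10:86705618-86705676, minus strand: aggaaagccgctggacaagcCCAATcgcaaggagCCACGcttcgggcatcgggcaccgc
Hsp90b1, chr10:86705513-86705571, minus strand, element on the opposite strand: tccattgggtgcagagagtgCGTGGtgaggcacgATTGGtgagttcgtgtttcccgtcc
Pdia6, chr12:17266471-17266529, plus strand: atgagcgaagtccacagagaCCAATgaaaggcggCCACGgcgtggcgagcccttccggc
Creld2, chr15:88819500-88819558, plus strand, element on the opposite strand: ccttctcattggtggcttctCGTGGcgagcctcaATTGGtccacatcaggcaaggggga
Derl3, chr10:75893222-75893280, plus strand, element on the opposite strand: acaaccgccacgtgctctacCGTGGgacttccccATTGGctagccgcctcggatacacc
Herpud1, chr8:94386357-94386407, plus strand, ERSE-II: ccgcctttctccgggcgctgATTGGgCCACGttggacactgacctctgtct
The 250 bases before the start of Dnajb9 held none of the 3 elements in these letters. They are shown because Dnajb9 had the widest interval of the 10 genes.
Dnajb9, chr12:44210069-44210318, minus strand: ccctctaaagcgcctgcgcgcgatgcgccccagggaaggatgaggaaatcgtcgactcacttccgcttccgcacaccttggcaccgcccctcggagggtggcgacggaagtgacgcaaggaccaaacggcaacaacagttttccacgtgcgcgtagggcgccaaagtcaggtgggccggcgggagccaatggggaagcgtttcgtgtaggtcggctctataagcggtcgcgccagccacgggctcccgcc

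Library totals ranged from 35101788 to 45401781 counts. Levels are given as CPM, the count relative to the library total after TMM scaling. The B-cell markers, 9 of 10 found in the table, summed to between 13562 and 15548 CPM in KO libraries and between 13208 and 14030 CPM in WT libraries, and 0 of them passed the edgeR test. Tet2 had 59.4, 64.8 and 50.0 CPM in KO libraries 2, 3 and 4, against 74.7, 83.3 and 56.8 CPM in WT libraries, and did not pass the test (log2 change −0.30, SE 0.14, adjusted p = 0.408). It was lower in KO at every number, and passed with a term for the libraries numbered 4 (−0.29, adjusted p = 0.0420), in libraries 2 and 3 only (−0.35, adjusted p = 0.00227) and without WT library 4 (−0.44, adjusted p = 0.0464). The deleted stretch was not analysed here. The Y-linked gene Kdm5d had 23.3, 34.2 and 34.9 CPM in KO libraries, against 0, 0.0227 and 0.0571 CPM in WT libraries, and the X-inactivation RNA Xist was lower in KO libraries (log2 change −0.81, adjusted p = 0.00251 by edgeR's quasi-likelihood test with Benjamini-Hochberg adjustment). With a change of this size Xist was reduced and not absent in the KO libraries as a group, which also held Kdm5d. RNA of this Y-linked gene was present in every KO library and absent or nearly so in every WT library. Whether the KO libraries held male cells only is not settled by these values. A difference in sex and the genotype cannot be told apart for the results below.

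The libraries numbered 4 stood apart in both genotypes. The cytosolic chaperone Hsph1 had 216 CPM in KO library 4, against 67.1 and 77.5 CPM in KO libraries 2 and 3, and 215 CPM in WT library 4, against 53.9 and 66.8 CPM in WT libraries 2 and 3. Hsph1 was chosen after its values were seen. The labels say nothing of what the number 4 stands for. The part of these libraries in the results was not tested, and values without them are given below. The T, NK, myeloid, dendritic and erythroid lists each summed to at most 67.5 CPM in KO libraries and 52.8 CPM in WT libraries, and the stromal list to 309 to 424 CPM in KO libraries and 325 to 381 CPM in WT libraries, nearly all of it Pecam1, with 0 genes called. Plasma cells are rich in ER, and their list had 12 of its 13 genes in the table and 11 tested, of which 0 passed, with a sum of 985 to 1030.2 CPM in KO libraries and 896 to 1025 CPM in WT libraries. Part of this sum was Mzb1, with a mean of 198 CPM in KO and 156 CPM in WT libraries. Another part was Xbp1, with a mean of 124 CPM in KO and 125 CPM in WT libraries. Both genes are also in lists compared below. No plasma-cell marker was at 0 in every library. Its antibody genes differed more between libraries: Igj, the J chain of secreted antibody, had 32.9, 21.3 and 11.1 CPM in KO libraries 2, 3 and 4, against 7.95, 13.3 and 4.91 CPM in WT libraries (adjusted p = 0.325), while Tnfrsf17, the plasma-cell receptor BCMA, stayed at or under 0.0481 CPM in all 6. The part of such cells in the results was not tested. In bulk RNA, fewer cells of a type and less RNA per cell cannot be told apart.

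The 10 genes spanned a wide range of abundance, with the same 3 genes on top and the same gene at the bottom in both genotypes. Levels between genes are compared as RPKM, the CPM per kilobase of exon. Hspa5 led with 192 ± 42.4 RPKM in KO libraries and 176 ± 42.5 RPKM in WT libraries (SD, n = 3 each), which put it above 98.6% of the genes tested in either genotype. Hsp90b1 and Pdia4 came next, with 121 ± 4.65 and 122 ± 17.8 RPKM in KO libraries and 109 ± 36.4 and 108 ± 17.5 RPKM in WT libraries. Derl3 was the lowest with 4.21 ± 1.01 RPKM in KO libraries and 3.38 ± 0.325 RPKM in WT libraries, and the highest mean exceeded the lowest 45.6-fold in KO libraries and 52.2-fold in WT libraries. The other 6 genes had means from 22.9 RPKM for Dnajb9 to 62.2 RPKM for Herpud1 in KO libraries, and from 19.6 RPKM for Sdf2l1 to 64.7 RPKM for Herpud1 in WT libraries.

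Fewer neighbours in this order had overlapping ranges in KO libraries than in WT libraries, with some narrow gaps. In KO libraries the order by mean was Hspa5, Pdia4, Hsp90b1, Herpud1, Pdia6, Edem1, Creld2, Sdf2l1, Dnajb9 and Derl3, and only Pdia4 with Hsp90b1 and Sdf2l1 with Dnajb9 had overlapping ranges among neighbours. The lowest value of Herpud1 was 57.81 RPKM, against 57.50 RPKM for the highest of Pdia6. For Creld2 and Sdf2l1 these values were 24.92 and 24.61 RPKM. Dnajb9, from 11.9 to 43.9 RPKM, also overlapped Edem1 and Creld2, which are not its neighbours. In WT libraries Dnajb9 stood in place 7, above Creld2. There the ranges of neighbours were clear of each other only between Pdia4 and Herpud1, between Pdia6 and Edem1, and between Sdf2l1 and Derl3.

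**Figure D1:**
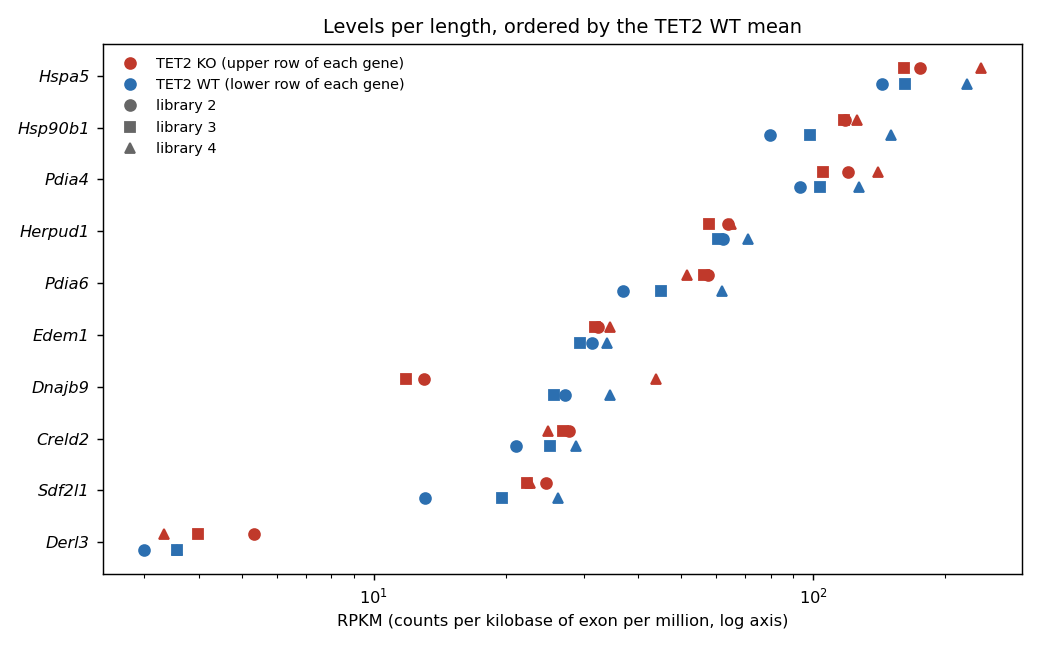
RPKM (log axis) of each gene in each library, with KO libraries in the upper and WT libraries in the lower row of a gene, and the library number given by the marker. Hspa5 lies at the top in both genotypes and Derl3 at the bottom, and the KO points of Dnajb9 run from 11.9 to 43.9 RPKM.

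None of the 10 genes passed the test between KO and WT over all 6 libraries. With edgeR's quasi-likelihood test and Benjamini-Hochberg adjustment over all genes, 0 of 10 were called at an adjusted p under 0.05, against 0.404% of all genes tested (55 of 13604). At an unadjusted p under 0.05 the count was also 0 of 10, where 13.4% of all genes passed, and DESeq2 and limma-voom called 0 of the 10 as well, against 2.51% and 0.353% of all genes. For none of the 10 were the KO and WT libraries free of overlap, against 18.5% of all genes tested. The log2 change was above 0 for 8 of the 10, against 48.8% of all genes, with a median of 0.13, against −0.01 for all genes. A p that misses the threshold does not show that levels were alike, so the 95% intervals are given with each gene below.

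**Figure D2:**
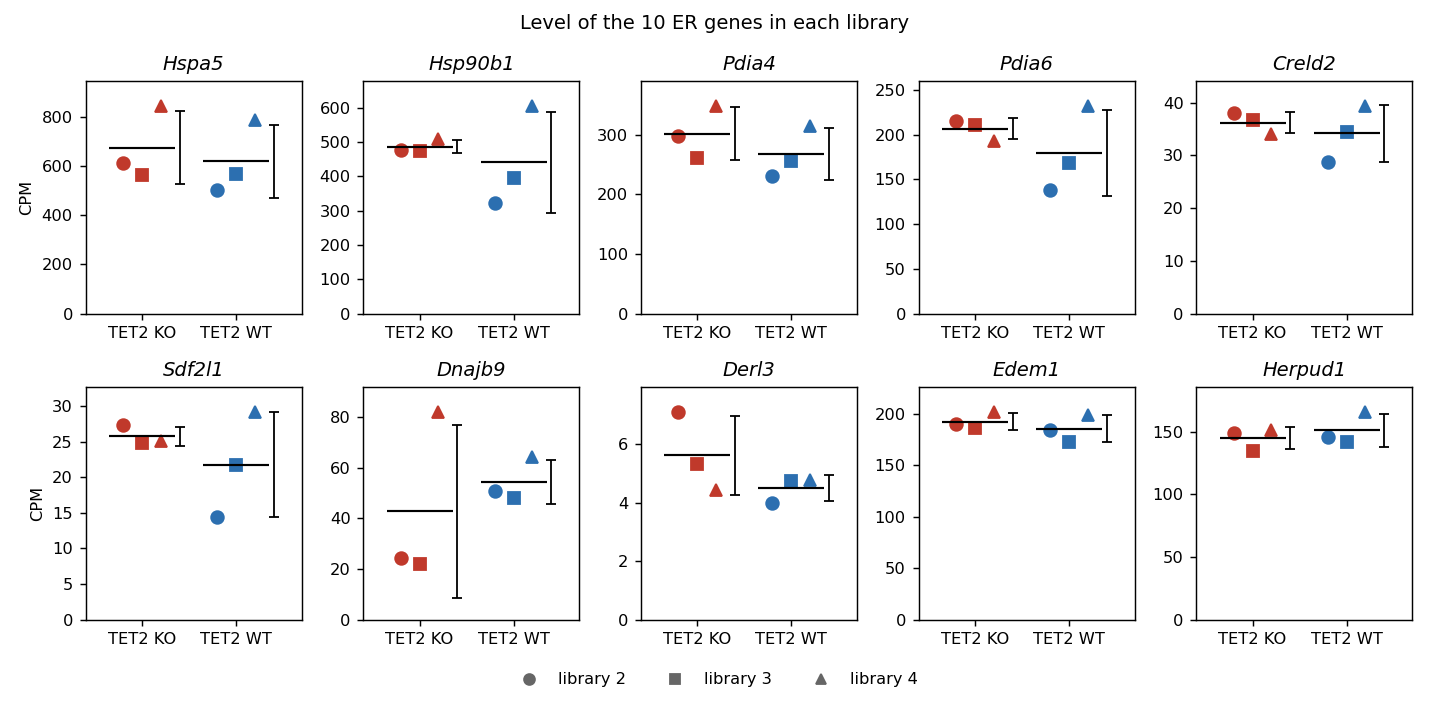
CPM of the 10 genes in each library, KO left and WT right in each panel, with the library number given by the marker, the mean as a line and the SD (n = 3) as a bar. KO and WT points overlap in every panel, and library 4 is the highest of Dnajb9 in both genotypes, at 82.0 CPM in KO and 64.3 CPM in WT.

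Hspa5 (chr2:34771970-34776531, plus strand, GRCm38 as all coordinates of genes) encodes BiP, the Hsp70 of the ER lumen, which binds unfolded chains and holds the sensors of the response inactive. It had 615, 566 and 845 CPM in KO libraries 2, 3 and 4, against 503, 568 and 788 CPM in WT libraries. Library 4 was the highest in both genotypes and the groups overlapped. The fitted change was 1.09-fold (log2 0.12, SE 0.19, 95% interval 0.811-fold to 1.46-fold, adjusted p = 0.805). Within a genotype, library 4 exceeded the mean of libraries 2 and 3 by 1.43-fold in KO and 1.47-fold in WT, more than the fitted change between genotypes.

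Hsp90b1 (chr10:86690209-86705509, minus strand) encodes GRP94, the Hsp90 of the ER, whose clients include integrins and Toll-like receptors. It had 476, 475 and 508 CPM in KO libraries 2, 3 and 4, against 322, 397 and 605 CPM in WT libraries. The KO libraries lay close together, inside the range of the WT libraries (SD 18.8 CPM in KO, 147 CPM in WT). The fitted change was 1.10-fold (log2 0.14, SE 0.19, 95% interval 0.811-fold to 1.497-fold, adjusted p = 0.784). Counting used no strand, and 10.3% of the exon bases of Hsp90b1 are shared with 1810014B01Rik on the opposite strand, so reads there cannot be assigned to either gene.

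Pdia4 (chr6:47796142-47813512, minus strand) and Pdia6 (chr12:17266545-17284770, plus strand) encode protein disulfide isomerases, which form and rearrange the disulfide bonds of folding chains. Pdia4 had 297, 261 and 348 CPM in KO libraries 2, 3 and 4, against 231, 256 and 315 CPM in WT libraries. Each KO library was above the WT library of the same number, and the ranges overlapped (log2 change 0.18, SE 0.13, 95% interval 0.915-fold to 1.39-fold, adjusted p = 0.6001). Pdia6 had 215, 211 and 193 CPM in KO libraries, against 138, 168 and 232 CPM in WT libraries. WT library 4 was the highest of all 6, and WT libraries 2 and 3 were the lowest (log2 change 0.20, SE 0.16, 95% interval 0.895-fold to 1.48-fold, adjusted p = 0.611).

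Creld2 and Sdf2l1 encode cofactors of folding in the ER: CRELD2 is an ER-resident protein that is also secreted, and SDF2L1 binds ER J proteins and supports the BiP cycle. Creld2 (chr15:88819646-88826681, plus strand) had 38.0, 36.7 and 34.0 CPM in KO libraries 2, 3 and 4, against 28.7, 34.4 and 39.4 CPM in WT libraries. All 3 KO libraries lay inside the WT range, with WT library 2 the lowest and WT library 4 the highest (log2 change 0.09, SE 0.12, 95% interval 0.883-fold to 1.28-fold, adjusted p = 0.781). Sdf2l1 (chr16:17130138-17132383, minus strand) had 27.3, 24.7 and 25.1 CPM in KO libraries, against 14.4, 21.6 and 29.1 CPM in WT libraries. Here too all 3 KO libraries lay inside the WT range, between the low WT libraries 2 and 3 and the high WT library 4 (log2 change 0.25, SE 0.21, 95% interval 0.856-fold to 1.64-fold, adjusted p = 0.636).

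Dnajb9 (chr12:44205897-44210068, minus strand) encodes ERdj4, a J-domain cochaperone that directs BiP to misfolded clients and, as known from cell studies, brings BiP to IRE1. It had 24.2, 22.1 and 82.0 CPM in KO libraries 2, 3 and 4, against 50.8, 47.9 and 64.3 CPM in WT libraries. KO libraries 2 and 3 were the lowest of the 6 and KO library 4 was the highest, so the KO libraries lay on both sides of the WT libraries. KO libraries averaged 42.8 ± 34.0 CPM and WT libraries 54.3 ± 8.78 CPM (SD, n = 3 each). Its interval was the widest of the 10, from 0.294-fold to 2.10-fold (log2 change −0.35, SE 0.56, adjusted p = 0.828). Library 4 exceeded the mean of libraries 2 and 3 by 3.54-fold in KO and 1.30-fold in WT.

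Derl3, Edem1 and Herpud1 act in ER-associated degradation, which moves misfolded proteins to the cytosol for the proteasome: Derlin-3 is a membrane protein of the exit channel, EDEM1 takes part in mannose trimming that marks glycoproteins, and HERP binds the ubiquitin ligase complex. Derl3 (chr10:75893398-75895941, plus strand) had 7.11, 5.32 and 4.45 CPM in KO libraries 2, 3 and 4, against 4.01, 4.75 and 4.77 CPM in WT libraries. KO library 4 lay within the WT range and the other KO libraries above it (log2 change 0.32, SE 0.19, 95% interval 0.922-fold to 1.69-fold, adjusted p = 0.502). These values rest on 176 to 313 counts per KO library and 167 to 209 counts per WT library, the fewest of the 10 genes. Edem1 (chr6:108828641-108859356, plus strand) had 189.7, 186 and 202 CPM in KO libraries, against 184, 173 and 199 CPM in WT libraries. Herpud1 (chr8:94386438-94395377, plus strand) had 149, 135 and 151 CPM in KO libraries, against 146, 142 and 166 CPM in WT libraries. The groups overlapped in both genes, and their intervals were the narrowest of the 10: 0.923-fold to 1.17-fold for Edem1 (adjusted p = 0.782) and 0.844-fold to 1.09-fold for Herpud1 (adjusted p = 0.795).

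The libraries numbered 2 and 3 gave another picture than those numbered 4. In a fit of libraries 2 and 3 only (n = 2 each), chosen with the values known, edgeR's quasi-likelihood test called 24.0% of all genes tested (3307 of 13800). Of the 10 genes, 3 rose in KO, against 13.6% of all genes, and 1 fell, against 10.4% of all genes. Hsp90b1 rose by 0.40 on the log2 scale (SE 0.09, adjusted p = 0.00852), Pdia6 by 0.48 (SE 0.08, adjusted p = 0.00298) and Derl3 by 0.51 (SE 0.17, adjusted p = 0.0454). Dnajb9 fell to 0.470-fold of the WT level (log2 change −1.09, SE 0.08, adjusted p = 2.81e-07). The other 6 did not pass, with log2 changes from −0.02 for Herpud1 (adjusted p = 0.888) to 0.53 for Sdf2l1 (adjusted p = 0.180).

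In the pair of libraries numbered 4, which has no replicate, these genes lay on the other side. The log2 difference, KO over WT, was −0.25 for Hsp90b1, −0.27 for Pdia6, −0.09 for Derl3 and 0.35 for Dnajb9. The value of Derl3 rests on 176 counts in KO library 4 and 167 in WT library 4. The Poisson counting error of the lower count alone is 7.74%, so the side of Derl3 is uncertain. Both KO libraries 2 and 3 were above both WT ones while KO library 4 was below WT library 4 for Hsp90b1, Pdia6, Creld2, Sdf2l1 and Derl3. These are 5 of the 10 genes, against 13% of all genes tested. Dnajb9 had the opposite layout, which 13.2% of all genes had. Hspa5, Pdia4, Edem1 and Herpud1 kept 1 direction in both sets. The first 3 were higher in KO, with log2 differences of 0.10, 0.14 and 0.018 in the pair numbered 4 and 0.14, 0.20 and 0.08 in libraries 2 and 3. Herpud1 was lower in KO, with log2 differences of −0.13 in the pair numbered 4 and −0.02 in libraries 2 and 3. The difference between these sets of libraries was not tested.

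**Figure D3:**
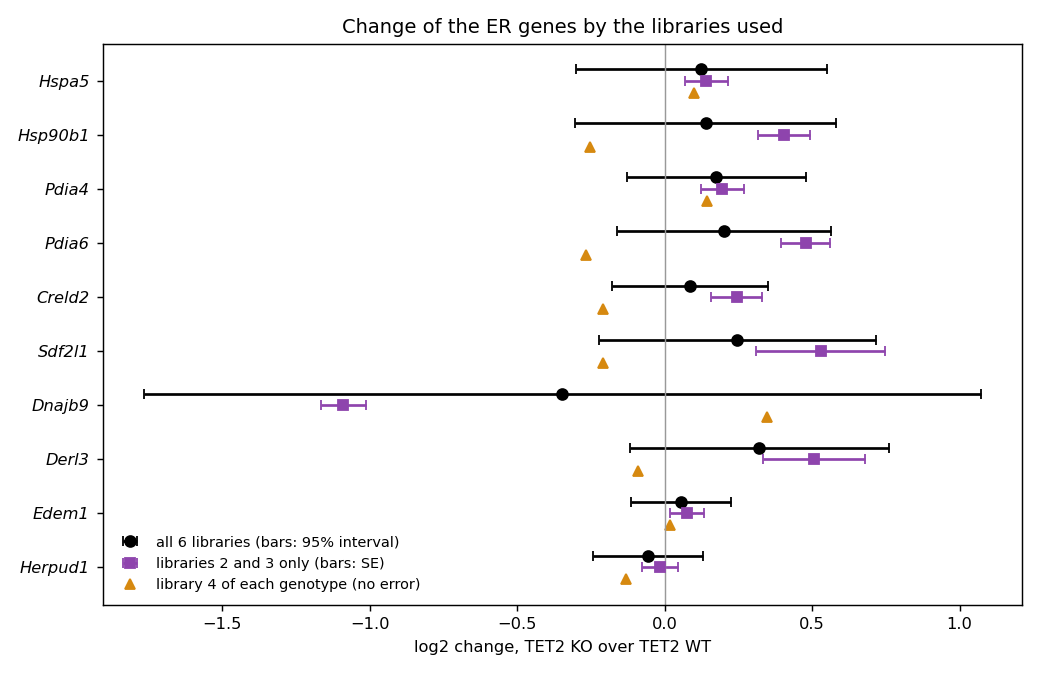
Log2 change, KO over WT, of each gene from all 6 libraries with its 95% interval, from libraries 2 and 3 with the SE, and for the libraries numbered 4 with no error. Dnajb9 lies at −1.09 in libraries 2 and 3 and at 0.35 in the libraries numbered 4, and Hsp90b1 and Pdia6 show the opposite order.

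These calls changed with single libraries. Without WT library 4, Hsp90b1 (log2 change 0.44, adjusted p = 0.0324) and Pdia6 (0.43, adjusted p = 0.0309) rose in KO, when 4.53% of all genes rose by edgeR's test. Without KO library 4, Dnajb9 fell (log2 change −1.23, adjusted p = 0.00874), when 0.626% of all genes fell. Leaving out any of the other 4 libraries gave 0 calls among the 10 genes with edgeR. A term for the libraries numbered 4 in the fit of all 6 also gave 0 of 10, against 4.40% of all genes.

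Library 4 was the highest of its genotype in both genotypes for Hspa5, Hsp90b1, Pdia4, Dnajb9, Edem1 and Herpud1, 6 of the 10 genes, against 23.3% of all genes tested. For Pdia6, Creld2 and Derl3 it was the lowest in KO and the highest in WT, against 10% of all genes. For Derl3 the WT values were close, at 4.77 CPM in library 4 and 4.75 CPM in library 3. Some heat-shock genes of the cytosol were also high in the libraries numbered 4. Hspa8 had 214, 239 and 418 CPM in KO libraries 2, 3 and 4, against 172, 184 and 427 CPM in WT libraries, and Dnajb1 had 80.1, 80.7 and 208 CPM in KO libraries, against 77.1, 69.3 and 199 CPM in WT libraries. Hspa4, of the same list, had 295, 296 and 288 CPM in KO libraries, against 241, 250.1 and 283 CPM in WT libraries, so that KO library 4 was its lowest KO library. The cold-inducible RNA-binding gene Cirbp ran the other way, with 200.02, 210.5 and 125 CPM in KO libraries, against 251, 231 and 129 CPM in WT libraries. Hspa8, Dnajb1, Hspa4 and Cirbp were chosen after their values were seen. The part of whatever sets these libraries apart was not tested.

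**Figure D4:**
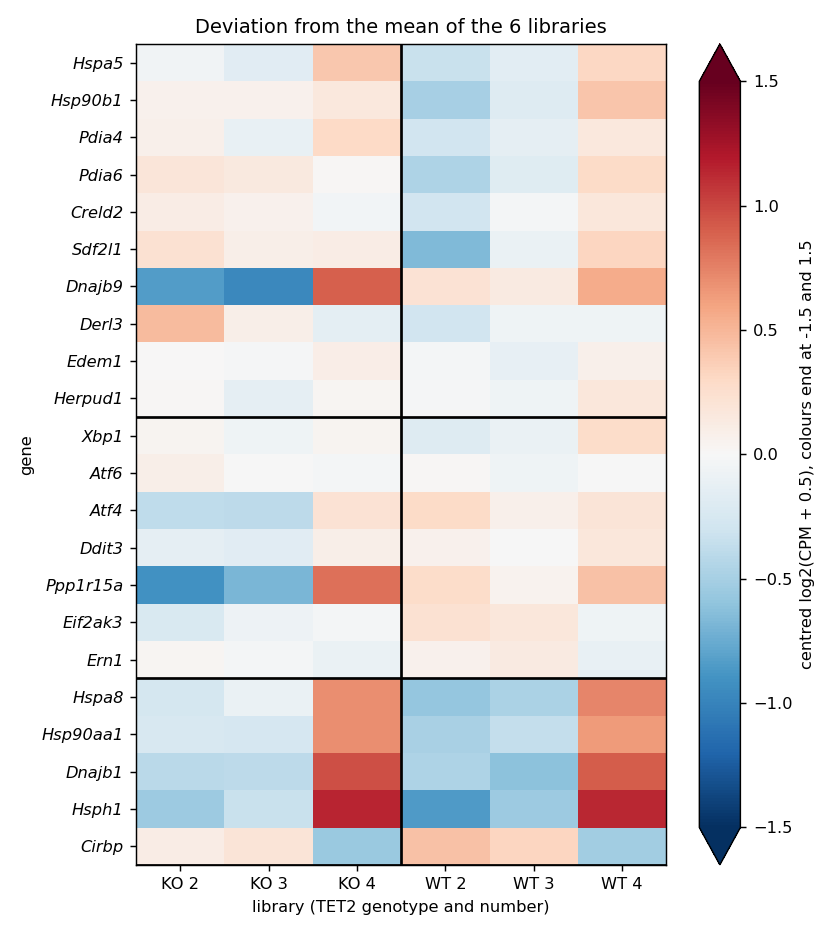
Log2(CPM + 0.5) of each gene minus its mean over the 6 libraries, as colour. KO libraries fill the left 3 columns and WT libraries the right 3. Rows are the 10 genes, sensors and transcription factors of the response with Ppp1r15a, and heat-shock genes with Cirbp. Dnajb9 and Ppp1r15a are lowest in KO libraries 2 and 3 and highest in KO library 4, while Hsph1 is high in both libraries numbered 4.

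The transcription factors of the response did not pass the test either. Xbp1, counted over spliced and unspliced forms alike, had 127, 118 and 127 CPM in KO libraries 2, 3 and 4, against 108, 116 and 150.2 CPM in WT libraries (log2 change −0.01, 95% interval 0.830-fold to 1.19-fold, adjusted p = 0.988). Its splicing was not analysed here. Atf4, translated when PERK or related kinases are active, had 273, 272 and 414 CPM in KO libraries, against 435, 374 and 407 CPM in WT libraries (log2 change −0.34, adjusted p = 0.385), and fell in libraries 2 and 3 alone (−0.57, adjusted p = 1.01e-04). Ppp1r15a, the phosphatase subunit GADD34 that reverses the PERK signal, had 114, 133 and 379 CPM in KO libraries, against 259, 223 and 290.3 CPM in WT libraries (log2 change −0.30, adjusted p = 0.831), the layout of Dnajb9. In libraries 2 and 3 it fell by 0.96 on the log2 scale (adjusted p = 0.000235), and in the pair numbered 4 the difference was 0.39. Ddit3, the factor CHOP, had 20.5, 20.01 and 24.1 CPM in KO libraries, against 23.7, 22.5 and 25.6 CPM in WT libraries (adjusted p = 0.558). Atf4, Ppp1r15a, Xbp1 and Ddit3 were chosen for naming after their values were seen.

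Of the genes of 6 further lists, which include a list of heat-shock genes outside the ER, 0 passed edgeR's test over all 6 libraries. This holds for either direction, where 0.404% of all genes tested passed. Of 26 other ER chaperones and folding enzymes tested, 22 had a log2 change above 0, against 48.8% of all genes, with a median of 0.15. An unadjusted p under 0.05 was found for 9, of which 8 were higher and 1 lower in KO, against 13.4% of all genes. P4hb, the founding protein disulfide isomerase, had 272, 261 and 261 CPM in KO libraries 2, 3 and 4, against 194, 208 and 233 CPM in WT libraries, free of overlap (log2 change 0.32, SE 0.08, adjusted p = 0.163). Sil1, the nucleotide exchange factor of BiP, had 19.0, 18.1 and 17.4 CPM in KO libraries, against 14.99, 13.1 and 14.9 CPM in WT libraries (log2 change 0.34, SE 0.10, adjusted p = 0.224). Both differed in the same direction at every number, unlike Hsp90b1 and Pdia6. The lower gene was Txndc5, a disulfide isomerase named for its direction after its values were seen, with 242, 231 and 206 CPM in KO libraries, against 288, 262 and 269 CPM in WT libraries, free of overlap (log2 change −0.27, SE 0.08, adjusted p = 0.233).

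Of 16 sensors, transcription factors and other signalling genes of the response, 7 had a log2 change above 0, against 48.8% of all genes. Their median was −0.04. An unadjusted p under 0.05 was found for 2, against 13.4% of all genes. These were Tmbim6, the ER membrane protein BI-1, with 617, 575 and 574 CPM in KO libraries, against 441, 482 and 509 CPM in WT libraries (log2 change 0.30, adjusted p = 0.186), and Eif2ak3, which encodes PERK, with 133, 147 and 153 CPM in KO libraries, against 182, 175 and 149 CPM in WT libraries (−0.23, adjusted p = 0.342). Of 20 genes of the degradation machinery, 10 were above 0, against 48.8% of all genes, with a median of −0.01. Vcp, the ATPase that extracts proteins from the ER membrane, was the only one of these 20 with an unadjusted p under 0.05 (log2 change 0.32, adjusted p = 0.182), where 13.4% of all genes passed.

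Of 17 genes of translocation and signal peptide cleavage, 15 were above 0, against 48.8% of all genes, with a median of 0.14. An unadjusted p under 0.05 was found for 2, against 13.4% of all genes. These were the translocon-associated subunit Ssr2 (log2 change 0.26, adjusted p = 0.349) and the signal peptidase subunit Spcs2 (0.26, adjusted p = 0.367). Of 14 PERK and ATF4 target genes, 14 were above 0, against 48.8% of all genes, with a median of 0.17. Over libraries 2 and 3, 11 of the 14 were above 0, against 6711 of all 13604 genes. In the pair numbered 4, 13 were above 0, against 6795 of all 13604 genes. Over all 6 libraries the lowest of the 14 was at 0.00015. The highest, at 0.81, rests on 4 to 20 counts per library. An unadjusted p under 0.05 was found for 5, against 13.4% of all genes. Ddit4, an inhibitor of mTORC1, had 44.1, 42.7 and 49.4 CPM in KO libraries, against 32.6, 24.9 and 38.5 CPM in WT libraries (log2 change 0.51, adjusted p = 0.217). Phgdh, the first enzyme of serine synthesis, had 22.7, 22.6 and 23.6 CPM in KO libraries, against 19.3, 16.8 and 18.6 CPM in WT libraries (0.33, adjusted p = 0.200). Of 17 cytosolic and mitochondrial heat-shock genes, 12 were above 0, against 48.8% of all genes, with a median of 0.12. The 17 include the cold-inducible Cirbp, at −0.19. An unadjusted p under 0.05 was found for 3, of which 2 were higher and 1 lower in KO, against 13.4% of all genes. Among them were the mitochondrial Hspa9 (log2 change 0.20, adjusted p = 0.292) and the Hsp70 cochaperone Bag3 (−1.16, adjusted p = 0.328). Bag3 stayed at or under 0.354 CPM in KO libraries and 0.747 CPM in WT libraries.

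The medians of some lists differed by the libraries used. Libraries 2 and 3 gave a median log2 change of 0.22 for the 10 genes, where the pair numbered 4 gave −0.11. For the other ER chaperones, libraries 2 and 3 gave 0.22 and the pair numbered 4 gave 0.0056, and for translocation the values were 0.19 and 0.00091. The PERK and ATF4 targets had a median of 0.21 over libraries 2 and 3, and of 0.15 for the number 4. For the heat-shock genes the values were 0.25 and 0.033, and for the degradation machinery 0.00058 and 0.0095. For the sensors, transcription factors and other signalling genes they were −0.04 and 0.017. With a term for the libraries numbered 4, edgeR called 7 genes of the lists higher and 1 lower in KO, where 4.40% of all genes were called. These were P4hb (adjusted p = 0.0246), Ddit4 (0.0246), Tmbim6 (0.0357), Vcp (0.0370), Hspa1a (0.0380), Phgdh (0.0427) and Hsp90ab1 (0.0486), and the lower Txndc5 (0.0381). DESeq2 called Tmbim6 and P4hb and no other gene of the lists.

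**Figure D5:**
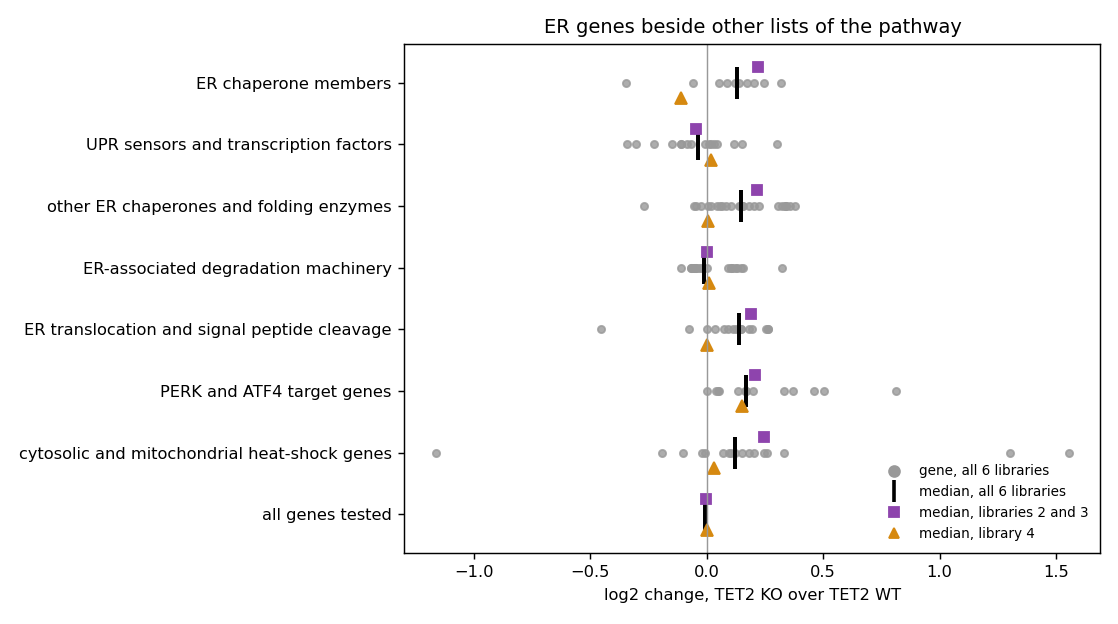
Log2 change, KO over WT, of every tested gene of the 10 and of the 6 lists (points), with the median from all 6 libraries, from libraries 2 and 3, and from the libraries numbered 4. The median of the 10 genes lies at 0.13 over all 6 libraries and at −0.11 in the libraries numbered 4, and the medians of all genes tested lie close to 0.

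The genes nearest in pattern to Hspa5 over the 6 libraries, by the root mean square difference of centred log2 values among 7453 well-measured genes, were Gpbp1, BC031181, Ormdl1, Snrnp27 and Ngdn, at 0.070 to 0.080 on the log2 scale. Hspa5 itself varied with an SD of 0.27. The nearest of the other 9 genes was Pdia4 at 0.096 and the farthest was Dnajb9 at 0.57. The genes nearest to Dnajb9 (SD 0.69), a search added after its values were seen, were Sik1, Rhob, Ppp1r15a, Fos and Rgs2, at 0.12 to 0.16. Fos had 228, 243 and 694 CPM in KO libraries 2, 3 and 4, against 592, 483 and 615 CPM in WT libraries. Rhob had 41.2, 42.9 and 127 CPM in KO libraries, against 89.7, 99.2 and 118 CPM in WT libraries. In both, KO libraries 2 and 3 were the lowest of the 6 and KO library 4 the highest, as for Dnajb9. Likeness over 6 libraries that share depth, scaling and the number 4 is a description only.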

How the data were processed

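RNA from naive splenic B cells was sequenced in 3 TET2 KO and 3 TET2 WT libraries. The values are the authors' deposited counts, whole-number counts of fragments per gene, made with featureCounts 1.5.1 without a strand option, per the file headers. Alignment used STAR 2.3.0e on GRCm38.p3, per the submitters' processing notes. Per the labels' protocols the library kit kept strand, but the counting did not, so reads of genes that overlap on opposite strands cannot be separated. The table held 6 further columns of counts matching no sample here, which were left out. CPM used TMM-scaled library sizes, and RPKM the deposited exon length of each gene.

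Genes were kept by filterByExpr (minimum count 10) and compared by edgeR 4.0.16 (robust quasi-likelihood F test) in R 4.3.3, with Benjamini-Hochberg adjustment over 13604 genes, a threshold of 0.05 and no covariate. The SE is the log2 change divided by the root of F, and the 95% interval uses the t distribution. Differences in the pair of libraries numbered 4 are of log2(CPM + 0.5), with no test. The script for the fit was tested on simulated counts. DESeq2 1.42.0, limma 3.58.1 (voom), other scalings and filters, a replicate block, a term for the libraries numbered 4, libraries 2 and 3 only, and leaving out each library were alternatives.

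Named genes are the 10 genes, Tet2, from each of 6 lists every gene past the threshold up to 4 by smallest p, or, with none past it, the first 2 by p, and the 5 genes nearest in pattern to Hspa5 (mean log2 CPM of at least 4). Others are said to be chosen after their values were seen, are markers, or were called with the term for the libraries numbered 4. A gene that this rule names is not reported here. The 10 genes, the lists and the rule were chosen with earlier results of these data known. Promoter windows are RefSeq's.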

Additional observations from a re-analysis of the deposited data

How the results depend on the processing

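Over all 6 libraries 0 of the 10 genes were called, and this held with other scalings, other filters, DESeq2, limma-voom, the replicate block and a term for the libraries numbered 4. With libraries 2 and 3 only, 3 were called higher and 1 lower in KO. Leaving out a library each gave 0 to 2 higher and 0 to 1 lower. Against 25 genes higher and 30 lower of all tested, there were 160 and 102 with every gene of at least 1 count, 197 and 145 with DESeq2, 353 and 246 with the term for the libraries numbered 4, 1871 and 1436 with libraries 2 and 3 only, and 9 to 630 and 8 to 270 without a library each. In the 6 lists, with 0 called, there was 1 higher with every gene of at least 1 count, 2 with DESeq2, 7 higher and 1 lower with the term, 45 and 10 with libraries 2 and 3 only, and 0 to 18 and 0 to 2 without a library each. The cause was not tested.

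The replicate block gave 85 calls, 35 higher and 50 lower, and changed no call among the 10 genes. Deviations from the group means correlated at 0.0750, 0.278 and 0.448 between libraries numbered 2, 3 and 4, and KO library 2 correlated best with WT library 3 (0.300), so the numbers were not taken as pairs.

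Leaving out a library reversed the log2 change of 5 genes: the range was −0.070 to 0.34 for Hspa5, −0.043 to 0.44 for Hsp90b1, −0.026 to 0.20 for Creld2, −0.00064 to 0.11 for Edem1 and −0.11 to 0.016 for Herpud1. Of 150 values of the 10 genes under 15 alternatives, 137 kept direction and side of the threshold, 7 passed it and 6 reversed. With 3 libraries a genotype the 95% intervals reach up to 1.46-fold for Hspa5 and 2.10-fold for Dnajb9.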

Other observations

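Genes in this section were chosen after their values were seen. The antibody genes of the plasma-cell list varied in different ways. Ighg3, a heavy chain of switched antibody, had 8.42, 6.96 and 6.17 CPM in KO libraries 2, 3 and 4, against 4.46, 3.41 and 3.45 CPM in WT libraries, with no overlap (edgeR log2 change 0.93, SE 0.18, adjusted p = 0.0928). With a term for the libraries numbered 4 its adjusted p was 0.00990. Igha, the heavy chain of IgA, had 7.43, 24.2 and 0.202 CPM in KO libraries, against 0.362, 0.750 and 0.228 CPM in WT libraries (adjusted p = 0.352), with KO libraries 2 and 3 far above the others. Ighg1 had 1.52, 7.92 and 10.4 CPM in KO libraries, against 14.3, 2.91 and 4.94 CPM in WT libraries (adjusted p = 0.955), with WT library 2 the highest of the 6.

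Hspa1b, an inducible cytosolic Hsp70, had 3.59, 7.73 and 27.9 CPM in KO libraries 2, 3 and 4, against 0.657, 0.5002 and 15.1 CPM in WT libraries. It was higher in KO at every number and highest in library 4 of both genotypes (edgeR adjusted p = 0.751 over all 6 libraries, 0.00685 in libraries 2 and 3 only and 0.214 with the term for the libraries numbered 4). Its near-identical copy Hspa1a had 0.409, 0.819 and 4.22 CPM in KO libraries, against 0.136, 0.0455 and 1.77 CPM in WT libraries (adjusted p = 0.665 over all 6 libraries, 0.00353 in libraries 2 and 3 only and 0.0380 with the term), and reads that both copies share cannot be assigned to either.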
